A study of Mus musculus with 21 samples.

Results

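The genes described here are 54 mouse genes of DNA replication and mitosis, chosen by name for their known function. The rule used no measured value, but earlier results of these data were known when the genes were chosen. They are 29 replication genes, which act at the start and during S phase, and 25 mitosis genes, which act from G2 to cell division, out of 48440 genes in the table. All 54 were found in the table and all 54 passed the filter on low counts. The series holds RNA-seq of 3 mouse cell lines in 6 groups of 2 or 3 biological replicates. The groups differ in Esrp2-as, a noncoding RNA read from the strand opposite Esrp2. M6 cells, taken from a mammary tumour of a C3(1)SV40 TAg mouse, received LNA antisense gapmers against Esrp2-as (2 knockdown replicates), with 2 replicates of a control that the labels name an empty vector control. M27H4 cells, a line from a mammary tumour of the same mouse model, overexpressed Esrp2-as in 3 replicates, with 3 empty vector controls. 3T3-L1 cells, a preadipocyte line, overexpressed it in 2 replicates, with 2 empty vector controls. All groups were grown in DMEM with 10% FCS. Each group is a single cell line in culture, so no animal is a replicate. The labels call the replicates biological and do not say that they were separate cultures, so p-values measure only the spread between these samples, which may be technical.

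In the cell cycle, the MCM2 to MCM7 helicase is loaded on origins by CDC6 and CDT1 in G1, and is then fired with CDC45 and the GINS complex in S phase. Polymerases, primase, the PCNA clamp with its RFC loader, and the enzymes that make deoxynucleotides then copy the DNA. Cyclin A, cyclin B, CDK1 and the Polo and Aurora kinases drive mitosis, the BUB and TTK proteins and the kinetochore hold it until chromosomes are attached, and CDC20 and UBE2C end it through the anaphase-promoting complex. Most replication genes are known targets of E2F transcription factors, which the retinoblastoma protein restrains, and most mitosis genes are known targets of the DREAM and MYB-MuvB complexes at CHR elements. The SV40 T antigen that gave rise to the tumours of the mouse model is known to bind the retinoblastoma protein.

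The 14 replicates held 34892461 to 328493417 counts, and 15014 to 19971 genes had at least 10 counts in each. Levels are CPM, the read count scaled to a common library size with TMM factors, fold changes are on the log2 scale, and SE is the standard error. A gene was called at an adjusted p under 0.05 in edgeR's quasi-likelihood test, with Benjamini-Hochberg adjustment over 21237 genes. Esrp2-as itself stood at 0.527 and 0.851 CPM in M6 knockdown against 2.96 and 2.42 CPM in M6 control replicates. It stood at 61.2, 65.9 and 15.9 CPM in M27H4 overexpression against 0.731, 1.25 and 0.889 CPM in M27H4 control replicates, and at 45.8 and 35.5 CPM in 3T3-L1 overexpression against 0.250 and 0.355 CPM in 3T3-L1 control replicates. Summed over 8 preadipocyte and fibroblast markers, levels were 3935 to 5160 CPM in 3T3-L1, 773 to 1072 CPM in M27H4 and 30.2 to 53.8 CPM in M6 replicates. Summed over 7 epithelial markers, they were 20.8 to 26.4 CPM in 3T3-L1, 153 to 285 CPM in M27H4 and 3320 to 5622 CPM in M6 replicates, so epithelial RNA was low in the line labelled M27H4. The 4 endothelial markers summed to 1.57 to 2.05 CPM in 3T3-L1, 21.5 to 32.2 CPM in M27H4 and 0.23 to 0.50 CPM in M6 replicates, and the 5 immune markers to at most 3.12 CPM in every replicate. In M27H4 controls nearly all of the endothelial sum was Kdr, at a mean of 26.8 CPM, and the endothelial cadherin gene Cdh5 was at 0. The part of these marker levels in the differences between lines was not tested.

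The lines were compared through their control groups, which answers how much of the replication and mitosis programme each line carries before Esrp2-as is changed. The 3 comparisons between lines share these control samples. Replication genes were lower in 3T3-L1 controls than in M6 controls. Of the 29, 24 were called lower and 0 higher, where 18.9% of all 21237 genes were called lower, 20.5% higher and 39.4% either way. Their median log2 fold change was -1.11, against 0.05 over all genes tested. In 28 of 29 both 3T3-L1 replicates lay below both M6 replicates, as did 31.2% of all genes. In bulk RNA, fewer cells in S phase or mitosis and less RNA per cell cannot be told apart. Line, tissue of origin and culture history cannot be told apart either.

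Among replication genes the difference was largest for Rrm2 (chr12:24708241-24714146 on GRCm38, plus strand), the small subunit of ribonucleotide reductase, which makes deoxynucleotides in S phase. It stood at 46.5 and 29.1 CPM in 3T3-L1 controls against 243 and 275 CPM in M6 controls. Every 3T3-L1 value lay far below every M6 value, and the log2 fold change was -2.78 (SE 0.27, adjusted p = 3.2e-06). Tyms, thymidylate synthase, followed among the 3 nucleotide genes at 91.8 and 64.3 CPM in 3T3-L1 against 153 and 238 CPM in M6 controls, a log2 change of -1.32 (SE 0.25, adjusted p = 0.00090). Rrm1, the large reductase subunit, fell by 0.82.

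All 8 origin licensing genes were called lower, with log2 changes between -1.53 and -0.78. Mcm7, a subunit of the replicative helicase, stood at 236 and 173 CPM in 3T3-L1 against 546 and 633 CPM in M6 controls, and fell by 1.53 (SE 0.24, adjusted p = 0.00023). Mcm6 and Mcm4, of the same helicase ring, fell by 1.23 and 1.21 (adjusted p = 0.0010 and 0.0011). Cdt1, the helicase loader that geminin inhibits, changed least of the 8. Of the 5 genes for firing of origins, 3 were called lower. Gins2, a subunit of the GINS complex, stood at 23.5 and 23.5 CPM in 3T3-L1 against 57.6 and 76.9 CPM in M6 controls and fell by 1.52 (SE 0.22, adjusted p = 0.00010), and Cdc45 fell by 1.23 (adjusted p = 0.0022). Gins3 and Mcm10 had log2 changes of -0.51 and -0.53 and were not called.

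All 5 genes of the sliding clamp and its loader were called lower. Pcna, the clamp, stood at 302 and 207 CPM in 3T3-L1 against 476 and 650 CPM in M6 controls, a log2 change of -1.14 (SE 0.25, adjusted p = 0.0022). Rfc5 and Rfc4, loader subunits, fell by 1.29 and 1.08 (adjusted p = 0.0016 and 0.0024). Of the 4 polymerase and primase genes, Prim1, Pola1 and Pole were called lower. Pola1, the catalytic subunit of polymerase alpha, fell by 1.19 (SE 0.28, adjusted p = 0.0037) and the primase subunit Prim1 by 1.18 (SE 0.23, adjusted p = 0.0011), and the primase subunit Prim2 was not, at -0.57. Among the 4 genes of the G1 to S transition and of chromatin, Slbp, which binds histone mRNA, and Chaf1a, a histone chaperone, fell by 1.50 and 0.94. Ccne2, cyclin E2, was not called. E2f1 (chr2:154559407-154569892, minus strand), the transcription factor that activates many of these genes, stood at 28.1 and 23.3 CPM in 3T3-L1 against 24.0 and 26.8 CPM in M6 controls. Its groups overlapped, and its log2 change of 0.02 had a 95% interval of -0.40 to 0.43 (adjusted p = 0.96).

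Mitosis genes were also lower in 3T3-L1 than in M6 controls. Of the 25, 20 were called lower and 0 higher, where 18.9% of all genes were called lower and 20.5% higher. The median log2 change was -1.01, against 0.05 over all genes tested. In 24 of 25 the groups did not overlap, with 3T3-L1 lower, as in 31.2% of all genes. Ccnb2 (chr9:70407692-70421547, minus strand), cyclin B2, stood at 48.4 and 36.4 CPM in 3T3-L1 against 158 and 218 CPM in M6 controls and fell by 2.15 (SE 0.23, adjusted p = 6.7e-06). Its partner Cdk1 fell by 1.13 (SE 0.29, adjusted p = 0.0065), while cyclin B1, Ccnb1, at -0.74 (SE 0.31, adjusted p = 0.074), was not called.

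The 4 kinetochore genes were all called lower. Cenpf (chr1:189640606-189688086, minus strand), a large kinetochore protein made from S phase on, stood at 31.6 and 23.4 CPM in 3T3-L1 against 322 and 131 CPM in M6 controls, a log2 change of -3.04 (SE 0.40, adjusted p = 4.8e-05). The M6 replicates were far apart for this gene, yet the lower of them was above every 3T3-L1 value. Cenpe, a kinetochore motor, and Nuf2, of the NDC80 complex, fell by 1.49 and 1.03. Of the 6 spindle and midzone genes 5 were called lower, led by the kinesin Kif11, which separates the spindle poles, at 108 and 59.5 CPM in 3T3-L1 against 351 and 282 CPM in M6 controls. Kif11 fell by 1.92 (SE 0.28, adjusted p = 0.00011), and the midzone motors Kif23 and Kif20a and the bundling protein Prc1 fell by 1.17, 1.18 and 0.93. Top2a, topoisomerase II alpha, and the checkpoint kinase Ttk fell by 1.61 and 1.01 (adjusted p = 0.0012 and 0.0021). The checkpoint and anaphase-promoting complex genes held most of the uncalled members: Bub1, Bub1b and Cdc20 had log2 changes of -0.52, -0.49 and -0.58.

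Replicate 2 of the 3T3-L1 controls was lower than replicate 1, and part of these differences depended on it. Without it, the median log2 changes against M6 controls were -0.86 for replication and -0.81 for mitosis genes. Without 3T3-L1 control replicate 1 they were -1.47 and -1.34, and without M6 control replicate 2 they were -0.97 and -0.79. Each of these fits left 1 sample in a group and called fewer of all genes than the main fit. The part of this in the calls lost among the 54 genes was not tested. In edgeR, genes that lost the call without 3T3-L1 control replicate 2 included Cenpe, Prc1, Nusap1, Cdk1, Pola1, Pole, Rrm1 and Cdt1, and further genes lost it too. Cdk1 and Cdt1 were among several genes that lost the call without M6 control replicate 2. Without M6 control replicate 1, Cenpe and Pole were not called. Rrm1 and Cdt1 also lost the call, at 0.081 and 0.088, when edgeR was fitted to these groups alone. The column names end in a code whose meaning is not given in the sources used here. Columns of both lines that share codes were added up, from 3T3-L1 control replicate 1 and M6 control replicate 2. With no test between these, the median log2 changes were -0.96 and -0.87 for replication and mitosis genes.

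**Figure D1:**
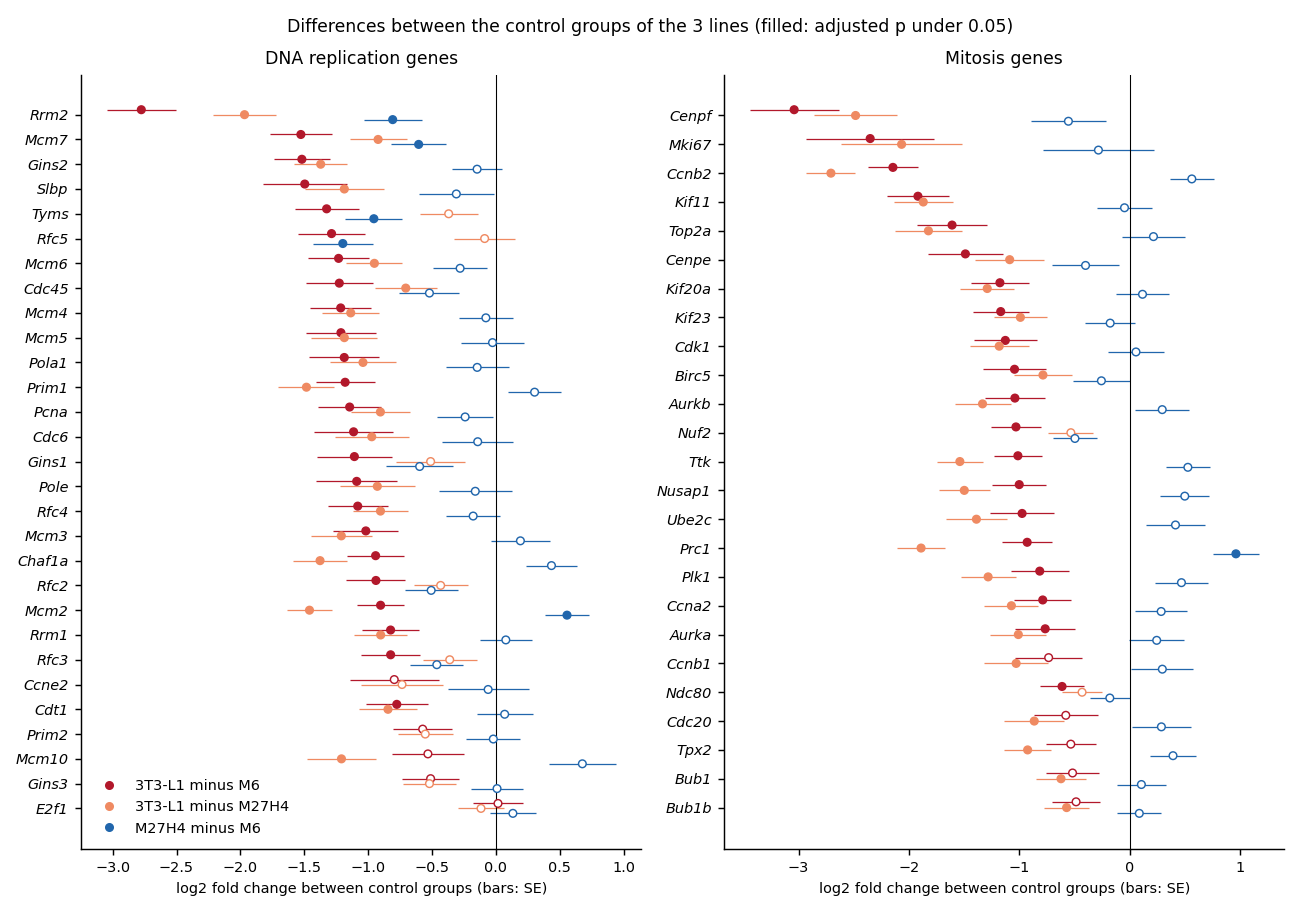
The log2 fold change of each gene between control groups is plotted on the horizontal axis, with SE bars, for 29 replication genes (left) and 25 mitosis genes (right), ordered by the 3T3-L1 against M6 difference. Both comparisons of 3T3-L1 lie left of 0 for nearly every gene, with Cenpf at -3.04 and Rrm2 at -2.78 the farthest against M6, while M27H4 against M6 scatters on both sides of 0.

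Against M27H4 controls, 3T3-L1 controls again had lower levels. Of the 25 mitosis genes 23 were called lower, and of the 29 replication genes 20 were, where 17.8% of all genes were called lower and 36.6% either way. The median log2 changes were -1.18 for mitosis and -0.92 for replication genes, against 0.02 over all genes tested. All 25 mitosis genes and 26 of 29 replication genes had groups that did not overlap, with 3T3-L1 lower, as did 28.2% of all genes. Without 3T3-L1 control replicate 2, the medians were -0.94 for mitosis and -0.64 for replication genes. In the summed columns that share codes, from 3T3-L1 control replicate 1 and M27H4 control replicate 2, they were -0.99 and -0.67. In a second pair, a single column of each line with the same code, they were -1.44 and -1.32.

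Ccnb2 stood at 48.4 and 36.4 CPM in 3T3-L1 against 256, 276 and 299 CPM in M27H4 controls, and fell by 2.71 (SE 0.22, adjusted p = 8.8e-07). Prc1 (chr7:80294450-80316259, plus strand), which bundles midzone microtubules, stood at 143 and 95.0 CPM in 3T3-L1 against 400, 499 and 425 CPM in M27H4 controls and fell by 1.89 (SE 0.22, adjusted p = 1.7e-05). Cenpf, Kif11 and Top2a fell by 2.48, 1.87 and 1.82, and Ttk and Nusap1, a spindle protein, by 1.54 and 1.50. Aurkb, Plk1 and Ube2c, the Aurora B and Polo-like kinases and a ubiquitin-conjugating enzyme of mitotic exit, fell by 1.33, 1.28 and 1.39. Kif20a and Cdk1 fell by 1.29 and 1.18 (adjusted p = 0.0010 and 0.0035). Nuf2 and Ndc80, both of the NDC80 kinetochore complex, were the pair of mitosis genes that were not called, with log2 changes of -0.53 and -0.43.

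Among replication genes, Mcm2 (chr6:88883474-88898780, minus strand), a helicase subunit, stood at 228 and 191 CPM in 3T3-L1 against 535, 598 and 595 CPM in M27H4 controls, and fell by 1.46 (SE 0.18, adjusted p = 2.7e-05). Rrm2 and Prim1 fell by 1.97 and 1.48, and Gins2 and Chaf1a by 1.37 and 1.38. Mcm3, Mcm5 and Mcm10 fell by 1.21, 1.19 and 1.21, and Mcm4, Mcm6, Rrm1 and Rfc4 by 1.14, 0.95, 0.90 and 0.90. Of these, Mcm10, Rrm1, Mcm6 and Rfc4 had adjusted p of 0.056, 0.078, 0.071 and 0.083 in edgeR without 3T3-L1 control replicate 2. Rfc5, Tyms and E2f1 overlapped between the lines, at log2 changes of -0.09 (95% interval -0.60 to 0.43), -0.37 (-0.86 to 0.12) and -0.12 (-0.50 to 0.27). Rfc5 and Tyms were among the genes called between the tumour lines.

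Fewer of these genes were called between the tumour lines. Of the 29 replication genes 5 were called between M27H4 and M6 controls, 4 lower and 1 higher, and of the 25 mitosis genes 1 was called, higher. Both shares are below that of all genes, of which 30.2% were called either way, 15% lower and 15.2% higher. Rfc5 stood at 56.7, 78.5 and 74.9 CPM in M27H4 against 140 and 182 CPM in M6 controls, and fell by 1.20 (SE 0.23, adjusted p = 0.0015). Tyms, Rrm2 and Mcm7 fell by 0.96, 0.81 and 0.60 (adjusted p = 0.0050, 0.016 and 0.049). Mcm2 was higher, at 535, 598 and 595 CPM in M27H4 against 393 and 390 CPM in M6 controls, a log2 change of 0.56 (SE 0.17, adjusted p = 0.024). So 2 subunits of the same helicase, Mcm2 and Mcm7, were called in opposite directions. Prc1 was higher too, at 400, 499 and 425 CPM in M27H4 against 221 and 232 CPM in M6 controls, with a log2 change of 0.96 (SE 0.21, adjusted p = 0.0031).

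The next mitosis genes by p in this comparison, none called, were Ccnb2 at 0.56, Ttk at 0.53, Nuf2 at -0.50 and Nusap1 at 0.50. By sign, 20 of 29 replication genes were lower in M27H4, with a median of -0.15, and 17 of 25 mitosis genes were higher, with a median of 0.21. With a replicate block these medians were -0.00 and 0.27, and 7 genes of each kind were called, where 7403 of all 21237 genes were. Without M6 control replicate 2 the medians were -0.06 for replication and 0.37 for mitosis genes. Without M27H4 control replicate 2 they were -0.13 and 0.14. In that fit 3 replication genes and 1 mitosis gene were called, where 5474 of 21156 genes were. Tyms and Rrm2 had adjusted p of 0.10 and 0.094 without M6 control replicate 2, and Mcm2 had 0.061 to 0.080 and Mcm7 0.057 to 0.22 when any of several replicates was left out. Rfc5 and Prc1 were called without each replicate in turn.

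The order of mean control levels restates the signs above from the same control samples and adds no support to them. In 20 of 29 replication genes the order, low to high, was 3T3-L1, M27H4, M6, and in 8 it was 3T3-L1, M6, M27H4, with E2f1 alone lowest in M6. In 17 of 25 mitosis genes the order was 3T3-L1, M6, M27H4, and in the other 8 it was 3T3-L1, M27H4, M6. Between M27H4 and M6, 6 of the 54 genes were called. Replicates of these lines overlapped in 31 of 54 genes, were apart and higher in M27H4 in 12 and apart and lower in 11, where 24.2% of all genes were apart and higher and 23.5% apart and lower. Summed over the 29 replication genes, 3T3-L1 replicates spent 0.241 to 0.353% of the scaled library, M27H4 0.548 to 0.631% and M6 0.512 to 0.685%. Summed over the 25 mitosis genes, the shares were 0.195 to 0.301%, 0.594 to 0.708% and 0.519 to 0.612% in the same order of lines.

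The widely used proliferation markers that follow are among the genes counted above, so their levels are no separate support. All were lower in 3T3-L1 controls, and their order between M27H4 and M6 varied. Pcna stood at 302 and 207 CPM in 3T3-L1 controls, at 470, 441 and 519 CPM in M27H4 controls and at 476 and 650 CPM in M6 controls. Ccne2 stood at 49.8 and 24.1 CPM in 3T3-L1, 57.1, 59.0 and 68.3 CPM in M27H4 and 54.5 and 73.7 CPM in M6 controls, with both 3T3-L1 values below the others. Cdk1 stood at 165 and 117 CPM in 3T3-L1, 303, 288 and 372 CPM in M27H4 and 222 and 396 CPM in M6 controls. Both tumour lines were above 3T3-L1, and the M6 values enclosed those of M27H4.

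Ccnb1 stood at 109 and 94.1 CPM in 3T3-L1, 156, 225 and 243 CPM in M27H4 and 136 and 203 CPM in M6 controls. Plk1, the Polo-like kinase, stood at 40.9 and 25.7 CPM in 3T3-L1, 74.1, 90.6 and 78.5 CPM in M27H4 and 51.8 and 65.4 CPM in M6 controls. Top2a stood at 561 and 326 CPM in 3T3-L1, 1732, 1601 and 1378 CPM in M27H4 and 1578 and 1130 CPM in M6 controls. Mki67 (chr7:135689784-135716361, minus strand), the Ki-67 protein that coats mitotic chromosomes, stood at 125 and 60.6 CPM in 3T3-L1, 528, 385 and 252 CPM in M27H4 and 676 and 270 CPM in M6 controls. Its M6 values lay far apart, and its log2 change of -2.35 against M6 controls had the largest SE of the 25, 0.58 (adjusted p = 0.0070), with an adjusted p of 0.098 in edgeR without M6 control replicate 1 and 0.086 without 3T3-L1 control replicate 2.

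**Figure D2:**
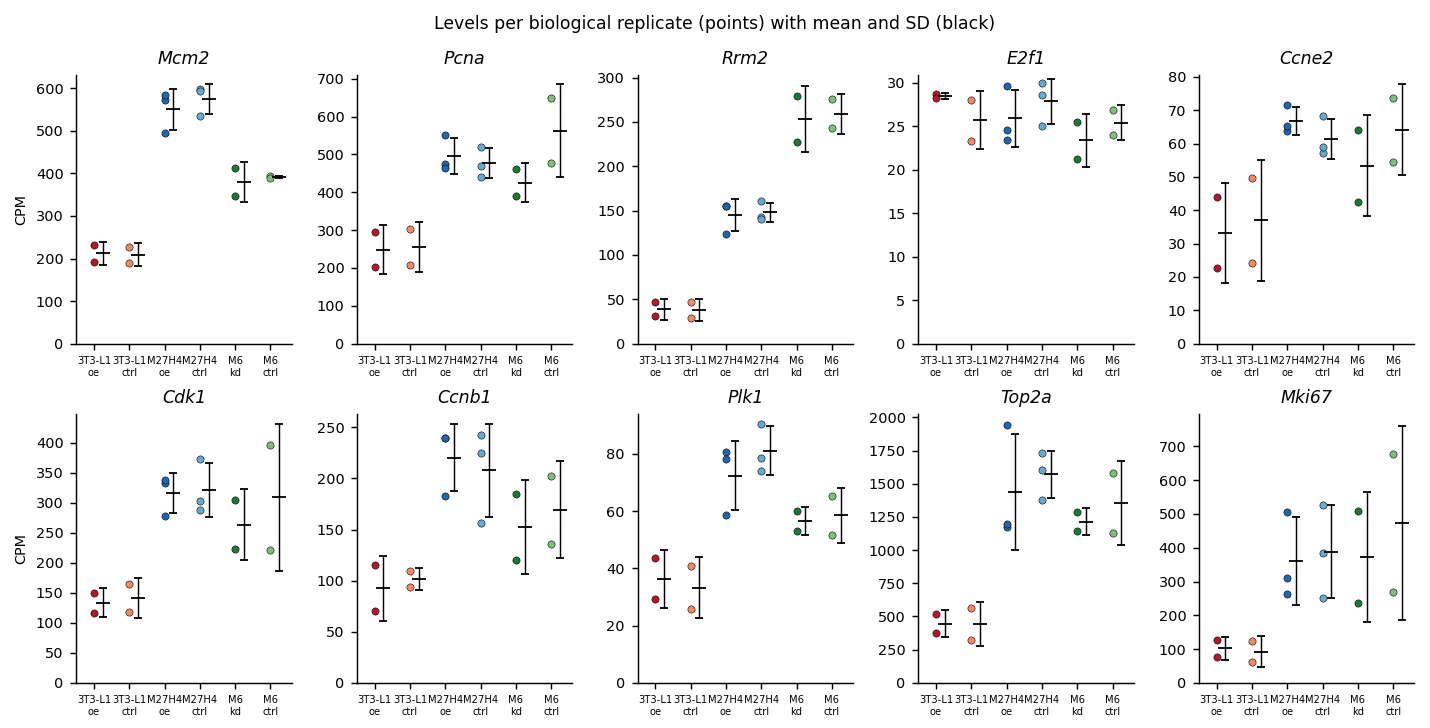
Each panel gives the CPM (vertical axis, from 0) of a gene in every biological replicate, with the mean and SD of each group in black; oe is overexpression, kd knockdown and ctrl control. The 4 replicates of 3T3-L1 are lowest in every panel except E2f1 and Ccne2, and treated and control points of a line lie close together.

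On a scale per transcript length (TPM), which allows genes to be compared within a group, Pcna and Top2a were the most abundant of the 54 in every control group. Pcna averaged 198 ± 75.0 TPM in 3T3-L1 (SD, n = 2), 336 ± 43.5 TPM in M27H4 (n = 3) and 489 ± 98.4 TPM in M6 (n = 2). Top2a averaged 115 ± 52.3 TPM, 366 ± 48.3 TPM and 430 ± 247 TPM in the same order of lines, so their order within a line was within the spread of replicates in M27H4 and M6. The least abundant was Cenpf in 3T3-L1, at 3.38 ± 1.49 TPM, and E2f1 in M27H4, at 10.3 ± 0.81 TPM, and in M6, at 14.8 and 9.31 TPM.

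Promoter sequences are shown because these genes moved together between lines and because replication and mitosis genes are known for different promoter elements. RefSeq promoter windows of GRCm38.p6, from 250 bases before to 50 after the start, were found for 43 of the 54 genes, 22 for replication and 21 for mitosis; Ccne2, Prim2, Rfc2, Pole, Gins1, Gins2, Mcm4, Aurkb, Kif20a, Tpx2 and Ccna2 had none in the table. They were searched on both strands for E2F core sites (written TTCCCGC, then TTGGCGC, then TTGCCGC and lastly TTCGCGC), CHR elements (TTTGAA as well as TTCGAA) and CCAAT boxes (CCAAT). The stretches below are the 180 bases before the start, written 5′ to 3′ along the gene, for the 3 genes of each kind with the lowest change in 3T3-L1 against M6 controls among those with a single window in the table whose stretch holds the element of their kind. Mcm7, with a larger change, has 2 windows and is not shown. Capitals mark any match to the 3 motifs, on either strand.
Mcm6 (chr1:128359706-128359885, minus strand): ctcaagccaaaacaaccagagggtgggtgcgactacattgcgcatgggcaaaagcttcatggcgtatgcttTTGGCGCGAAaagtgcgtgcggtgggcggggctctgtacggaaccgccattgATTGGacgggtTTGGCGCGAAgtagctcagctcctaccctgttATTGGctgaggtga
Mcm5 (chr8:75109329-75109508, plus strand): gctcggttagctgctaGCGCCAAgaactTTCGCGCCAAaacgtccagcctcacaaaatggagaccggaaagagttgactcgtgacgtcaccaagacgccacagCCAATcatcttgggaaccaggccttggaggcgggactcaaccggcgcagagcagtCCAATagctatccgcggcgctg
Pola1 (chrX:93632156-93632335, minus strand): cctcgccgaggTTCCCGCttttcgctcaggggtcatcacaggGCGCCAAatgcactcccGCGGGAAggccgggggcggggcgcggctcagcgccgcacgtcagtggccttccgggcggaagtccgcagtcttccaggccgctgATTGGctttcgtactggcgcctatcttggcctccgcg
Mki67 (chr7:135716380-135716559, minus strand): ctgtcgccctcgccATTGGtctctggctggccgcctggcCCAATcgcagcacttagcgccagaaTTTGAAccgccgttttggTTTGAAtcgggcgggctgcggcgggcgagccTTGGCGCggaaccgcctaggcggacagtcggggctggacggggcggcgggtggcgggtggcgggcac
Ccnb2 (chr9:70421555-70421734, minus strand): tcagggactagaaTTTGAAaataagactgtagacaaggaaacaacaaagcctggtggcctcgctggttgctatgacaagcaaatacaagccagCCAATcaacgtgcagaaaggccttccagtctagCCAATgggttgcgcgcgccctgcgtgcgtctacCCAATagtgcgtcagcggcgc
Kif11 (chr19:37376202-37376381, plus strand): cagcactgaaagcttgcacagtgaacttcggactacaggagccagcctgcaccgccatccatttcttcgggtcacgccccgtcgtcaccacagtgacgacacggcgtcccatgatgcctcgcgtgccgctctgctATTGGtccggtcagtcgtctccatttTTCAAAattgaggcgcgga

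The Mcm6 stretch holds 2 pairs of overlapping E2F cores, at -109 to -100 and -46 to -37 counted from the start, and the Mcm5 stretch holds 3 cores between -164 and -143. Pola1 has cores on both strands between -169 and -115. Mki67 carries a pair of TTTGAA elements at -116 and -98 and an E2F core at -67, Ccnb2 a TTTGAA at -167 and 3 CCAAT boxes nearer the start, and Kif11 a CHR on the reverse strand at -19 with a CCAAT box at -45. Over the 43 genes with a window, an E2F core was found in 14 of 22 replication genes (63.6%) and 3 of 21 mitosis genes (14.3%), against 10.9% of all 27025 genes with a window. A CHR was found in 5 of 22 replication genes (22.7%) and 16 of 21 mitosis genes (76.2%), against 21.7% of all genes, so the replication share was close to that of all genes. A CCAAT box was found in 16 of 22 (72.7%) and 17 of 21 (81.0%), against 41.1% of all genes. In 3 genes, Ccnb1, Mcm7 and Prim1, a CCAAT match shared bases with an E2F core match. These matches describe letters, not binding, and their part in the differences between lines was not tested.

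**Figure D3:**
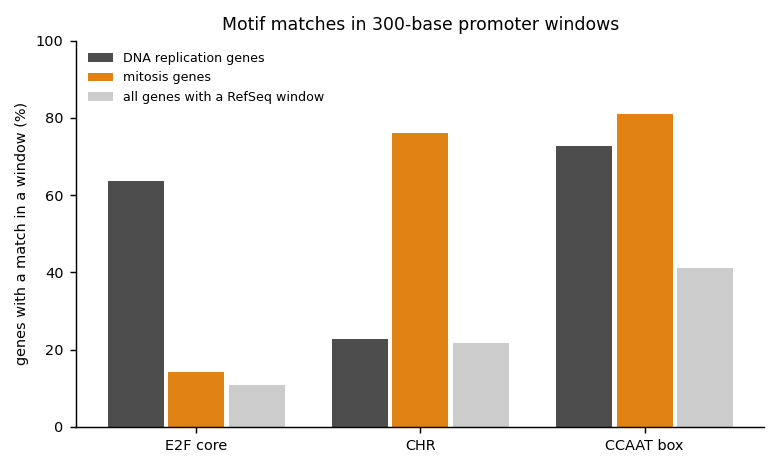
Bars give the percentage of genes with a match to each motif in 1 or more of their promoter windows (vertical axis, from 0 to 100) for replication genes, mitosis genes and all genes with a RefSeq window. E2F cores stand out in replication genes (63.6%), CHR elements in mitosis genes (76.2%), and CCAAT boxes are frequent in both.

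Knockdown of Esrp2-as in M6 cells was compared with its control to see whether loss of the RNA changes these genes. No replication or mitosis gene was called. edgeR, DESeq2 and limma voom each called 0 of 54, with 0.137% of all genes called by edgeR, and 1 of 54 had an unadjusted p under 0.05 in edgeR, where 6.27% of all genes did. All 29 replication genes had lower means in knockdown cells, with a median log2 change of -0.28, and 22 of 25 mitosis genes did, with a median of -0.14, against -0.03 over all genes tested. The values did not overlap, knockdown lower, in 12 of 29 replication and 6 of 25 mitosis genes, where 13.8% of all genes did so. Summed over the replication genes, knockdown replicates stood at 0.512 and 0.599% of the library against 0.636 and 0.685% in control replicates, with no overlap.

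Rfc4 (chr16:23113943-23127737, minus strand), a subunit of the clamp loader, had the smallest p. It stood at 30.8 and 30.5 CPM in knockdown against 49.7 and 54.9 CPM in control cells, a log2 change of -0.77 (SE 0.23, 95% interval -1.28 to -0.27, adjusted p = 0.40 in edgeR). Rfc4 has exons that overlap Eif4a2 on the opposite strand. Its leading transcript held 42.3% of its estimated counts in M6 knockdown and 92.7% in M6 control cells. The part of this in the gene's value was not tested. Prim1 stood at 78.7 and 87.9 CPM in knockdown against 102 and 124 CPM in control cells, a log2 change of -0.44 (SE 0.23, adjusted p = 0.88 in edgeR). Rfc3, Gins2 and Gins1 had log2 changes of -0.44, -0.39 and -0.52 with overlapping groups. Among mitosis genes, Ndc80 stood at 61.9 and 63.5 CPM in knockdown against 83.6 and 83.1 CPM in control cells, a log2 change of -0.41 (SE 0.20, adjusted p = 0.83 in edgeR). Ccnb2, Nusap1, Bub1b and Kif11 had log2 changes of -0.33, -0.34, -0.25 and -0.28, with adjusted p from 0.99 to 1 in edgeR.

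By pairs of equal replicate number, the median difference over replication genes was -0.35 in pair 1, with 28 of 29 lower in the knockdown replicate, and -0.27 in pair 2, with 25 of 29 lower. Over mitosis genes it was -0.16 and -0.12, with 20 of 25 lower in each pair. With the replicate number as a block 0 of 54 were called, although 293 of all genes were, against 29 without the block. In the columns of the 1 code that both M6 groups share the medians were -0.30 and -0.15. When a replicate was left out, the replication median ranged between -0.49 and -0.16 and the mitosis median between -0.27 and -0.08.

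Mcm2 stood at 346 and 414 CPM in knockdown against 393 and 390 CPM in control cells, and Rrm2 at 227 and 279 CPM against 243 and 275 CPM. E2f1 stood at 21.2 and 25.6 CPM in knockdown against 24.0 and 26.8 CPM in control cells. Ccnb1 and Cdk1, at 120 and 185 CPM and at 222 and 305 CPM in knockdown, overlapped control values of 136 and 203 CPM and of 222 and 396 CPM. Pcna, at 390 and 461 CPM in knockdown, lay just below its control values of 476 and 650 CPM, with a log2 change of -0.40 (95% interval -0.93 to 0.12).

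Overexpression of Esrp2-as in M27H4 cells, with 3 replicates a group, gave small differences in these genes. edgeR, DESeq2 and limma voom each called 0 of 54, and 0 had an unadjusted p under 0.05 in edgeR, where 0.00942% of all genes were called and 1.69% had such a p. Median log2 changes were -0.02 for replication and -0.03 for mitosis genes, as over all genes tested (-0.03). Fold changes of the 54 ranged between -0.17 and 0.18, and in none did the groups separate, where 2.68% of all genes were separate and higher and 2.42% separate and lower. Without each replicate in turn, the medians ranged between -0.10 and 0.01.

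Mcm2 stood at 495, 573 and 584 CPM in M27H4 overexpression against 535, 598 and 595 CPM in control cells. Top2a stood at 1943, 1176 and 1196 CPM against 1732, 1601 and 1378 CPM, and Mki67 at 507, 310 and 263 CPM against 528, 385 and 252 CPM, in overexpression and control. Replicate 1 was high in both groups for Mki67. Pcna, Cdk1 and Plk1 stood at 551, 474 and 465 CPM, at 277, 333 and 337 CPM and at 58.5, 80.6 and 78.1 CPM in overexpression, all reaching into the control ranges. The replication genes with the smallest p were Gins2, Mcm7, Mcm4, Prim1 and Chaf1a, at -0.16, -0.16, -0.15, 0.14 and -0.13. The 95% interval of Mcm7 was -0.58 to 0.26. The mitosis genes were Ccna2, cyclin A2, at 0.18, Plk1 at -0.16, Cenpf at -0.17, Bub1b at -0.10 and Kif23 at -0.11. The interval of Ccna2 was -0.27 to 0.64.

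In 3T3-L1 cells, overexpression again gave no call. edgeR, DESeq2 and limma voom each called 0 of 54, and 0 had an unadjusted p under 0.05 in edgeR, where 0.00471% of all genes were called and 0.946% had such a p. Median log2 changes were -0.05 for replication and -0.04 for mitosis genes. E2f1 was the only one of the 54 without overlap, at 28.7 and 28.3 CPM in overexpression against 28.1 and 23.3 CPM in control cells, where 12.1% of all genes were separate and higher, and its log2 change was 0.15 (SE 0.19, adjusted p = 1 in edgeR). Prim1, Cdt1, Tyms and Rfc4 had log2 changes of -0.16, 0.15, -0.14 and -0.12, and Ndc80, Aurka, Ube2c, Nuf2 and Bub1 of -0.16, -0.21, 0.21, -0.14 and -0.14. These values turn with the replicates, since replicate 2 was lower than replicate 1 in both groups. Leaving out 3T3-L1 control replicate 1 gave a replication median of 0.27, and leaving out 3T3-L1 overexpression replicate 1 gave -0.31.

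Pairs of equal number were close. The replication median was -0.08 in pair 1 and -0.01 in pair 2, and the mitosis median was -0.08 and 0.02. Mcm2 stood at 232 and 192 CPM in overexpression against 228 and 191 CPM in control cells, and Rrm2 at 47.0 and 30.5 CPM against 46.5 and 29.1 CPM. Top2a stood at 517 and 373 CPM in overexpression against 561 and 326 CPM in control cells. In each of these genes replicate 1 of overexpression resembled replicate 1 of the control, and replicate 2 resembled replicate 2.

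**Figure D4:**
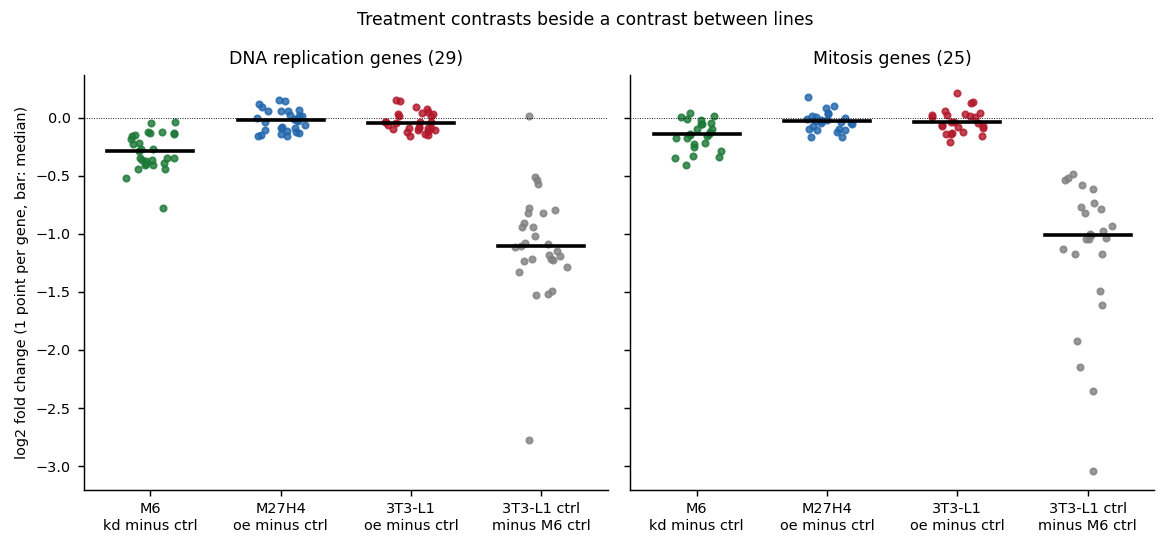
Each point is a gene and the vertical axis its log2 fold change in the 3 treatment comparisons and, in grey, in 3T3-L1 against M6 controls, with the median as a black bar. The M6 knockdown medians are -0.28 and -0.14, those of both overexpression groups lie at -0.05 to -0.02, and the line comparison is at -1.11 and -1.01.

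The effects of overexpression in M27H4 and in 3T3-L1 were set against each other in an interaction test. edgeR called 0 of 54 genes, where it called 0.00471% of all genes, and 0 had an unadjusted p under 0.05, where 1.51% of all genes did. DESeq2 and a fit with the replicate block called 0 as well. Differences of log2 change, M27H4 minus 3T3-L1, ranged from -0.29 for Plk1 to 0.30 for Prim1, with medians of 0.02 for replication and -0.02 for mitosis genes.

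Differences between replicates of a group were of the size of the treatment differences or larger. In 3T3-L1 overexpression cells replicate 1 was above replicate 2 in 54 of 54 genes, by a median of 0.47 on the log2 scale, and in 3T3-L1 controls in 53 of 54, by 0.58. Over all 9772 genes with a mean of at least 10 CPM, the medians were -0.01 and 0.05. The replicate numbers of 3T3-L1 differ also in the code that ends the column names, so replicate and code cannot be told apart there.

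In M6 the replicates differed by transcript length, as they did for mitosis genes in M27H4. Mki67 stood at 509 and 235 CPM in knockdown against 676 and 270 CPM in control replicates, and Cenpf at 296 and 153 CPM against 322 and 131 CPM. In both groups replicate 1 was clearly higher for these genes, whose mean transcript lengths are 9998 and 9513 bases. Over the 5 mitosis genes of 4000 bases or more, replicate 1 exceeded replicate 2 by a median of 0.69 in knockdown and 1.06 in control cells, while over the 20 shorter ones the medians were -0.19 and -0.30. Across the 54 genes, which are not independent replicates, Pearson's r between this difference and log2 length was 0.63 in knockdown and 0.74 in control cells, and across all 9772 genes it was 0.28 and 0.45. Within the single column code that both M6 groups share the difference was as large. Mki67 there stood at 546 and 213 CPM of the column total in knockdown against 732 and 293 CPM in control replicates. In M27H4, r between the same ratio and log2 length was 0.66 in overexpression and 0.53 in control cells over mitosis genes. Over replication genes it was 0.13 and -0.35, and over all 9772 genes 0.10 and -0.11. What lies behind these differences was not tested.

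**Figure D5:**
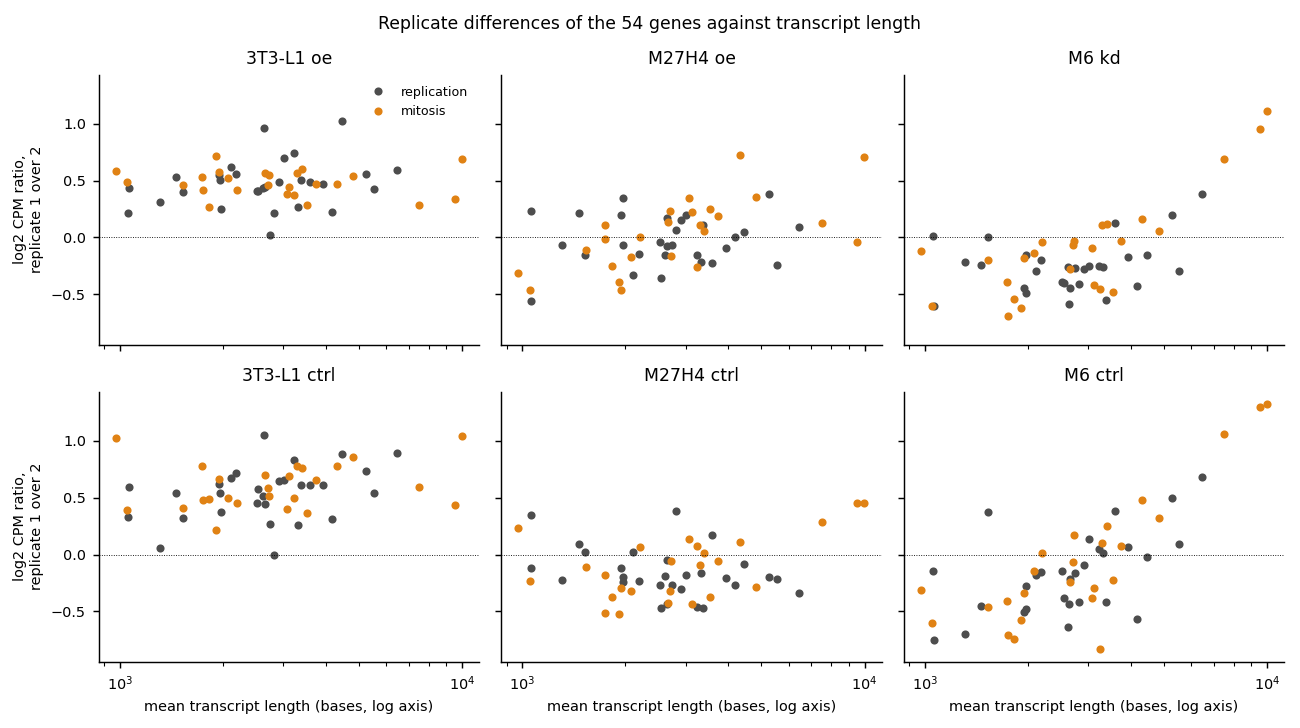
Each point is a gene, its mean transcript length on the horizontal log axis and the log2 CPM ratio of replicate 1 over replicate 2 on the vertical axis, for each of the 6 groups. Both 3T3-L1 panels lie above 0 for nearly all genes (medians 0.47 and 0.58). In the M6 and, less strongly, the M27H4 panels the ratio is higher for long mitosis genes.

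Other genes of the same processes, taken from lists of replication, mitosis and histone genes, followed the lines in the same way. In 3T3-L1 against M6 controls, 27 of 44 other replication genes were called lower and 2 higher. Of 52 other mitosis genes 37 were called lower and 0 higher, and of 58 replication-dependent histone genes 42 lower and 0 higher. Over all genes, 18.9% were called lower and 20.5% higher. The medians of these lists were -0.80, -0.93 and -1.20, against 0.05 over all genes tested. E2f2, an activating E2F, fell by 2.60 (SE 0.35, adjusted p = 4.9e-05), while E2f1 was not called. Pole2, a polymerase epsilon subunit, Dut, the dUTPase, and Lig1, DNA ligase I, fell by 2.07, 1.88 and 1.29. Nek2, a centrosome kinase, Pbk, a mitotic kinase, Lmnb1, lamin B1, and Cenpa, the centromeric histone, fell by 2.27, 2.38, 2.07 and 1.86. Hist1h3c, Hist1h2af, Hist1h3f and Hist1h1a fell by 2.16, 2.40, 2.69 and 2.86. Orc3 and Orc4, subunits of the origin recognition complex, were the pair called higher.

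In 3T3-L1 against M27H4 controls, 24 of 44 other replication, 42 of 52 other mitosis and 44 of 58 histone genes were called lower. The number called higher was 0 in each list. Over all genes, 17.8% were called lower and 36.6% either way. The medians of these lists were -0.72, -1.12 and -1.21, against 0.02 over all genes tested. Timeless, of the replication fork protection complex, and Gmnn, geminin, fell by 1.74 and 1.67, and Pole2 and Lig1 by 1.60 and 1.26. Nek2, Cdca3, Anln, the cytokinesis protein anillin, and Cenpi fell by 1.96, 2.00, 1.92 and 1.50. Hist1h3c, Hist1h3f, Hist1h1c and Hist1h2af fell by 2.05, 2.68, 1.60 and 2.18. Between M27H4 and M6 controls, 9 of 44, 11 of 52 and 2 of 58 were called, fewer than the 30.2% of all genes. Orc4, Pold1 and Mtbp were higher in M27H4 by 0.67, 0.80 and 0.74, and Dut fell by 1.03. Lmnb1 and Pbk fell by 1.36 and 1.42, and Cenpi and Cdc25b, a phosphatase that activates CDK1, were higher by 0.81 and 0.72. Hist1h1a fell by 1.05 and Hist1h4d was higher by 0.79, and the next by p, Hist4h4 and Hist1h3a, had -0.81 and -0.61. In edgeR, Dut and Hist1h1a had adjusted p of 0.16 and 0.57 without M6 control replicate 2, and Hist1h4d had 0.33 without M6 control replicate 1. Histone genes are near-identical copies, so reads could be split among them and single values are uncertain. In the 3 treatment comparisons and their interaction, edgeR called 0 of these 154 genes, and 1 of each list had an unadjusted p under 0.05 in M6 knockdown and 0 in the rest. In M6 knockdown 36 of 44 other replication and 43 of 52 other mitosis genes were lower than in control cells, with medians of -0.21 and -0.11. Histone genes also leaned to one side without a call. In M6 knockdown 55 of 58 were lower than in control cells, with a median of -0.37, in M27H4 overexpression 53 of 58 were lower, with a median of -0.16, and in 3T3-L1 overexpression 53 of 58 were higher, with a median of 0.14. Over all genes tested the medians were -0.03, -0.03 and 0.00. For the difference of the overexpression effects, M27H4 minus 3T3-L1, 54 of 58 were negative, with a median of -0.30. Each direction depended on single replicates. The histone median was 0.16 without M6 control replicate 2, 0.041 without M27H4 control replicate 2 and -0.017 without 3T3-L1 control replicate 2. It was -0.015 without M27H4 overexpression replicate 1 and 0.012 without 3T3-L1 overexpression replicate 1. In M6 it was -0.18 and -0.60 without knockdown replicates 1 and 2. DESeq2 and limma voom called 0 histone genes in these treatment comparisons as well.

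Gene models limit some values. In GENCODE M21, 17 of the 54 genes have exons that overlap exons of a gene on the opposite strand, among them Rfc4, Rfc5, Mcm7, Gins2, Prc1, Cdc45 and Ube2c. Libraries were strand-specific per the labels, and the strand setting of the counting is not given in the sources used here. The transcript estimates gave the same leading transcript in all 6 groups for 48 of 54 genes, and in 29 it held at least 90% of the gene's estimated counts in every group.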

How the data were processed

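The authors deposited expected counts per gene as whole numbers for 21 columns. Per the submitters' processing notes, the tools were cutadapt, HISAT2, StringTie and edgeR, on mm10 (GRCm38); versions, annotation and strand setting are not given in the sources used here. Estimated counts follow read coverage, so overlapping genes and near-identical copies are uncertain. The CPM tables were not used. Each of 2 such tables held 1 column that matched no sample. Technical replicates named in the labels were added up, giving 14 biological replicates of 34892461 to 328493417 counts. Columns were matched by the code that ends their names; what it marks is not given in the sources used here.

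Symbols, lengths and coordinates (counted from 1) come from GENCODE M21 on GRCm38, which matched 48058 of 48440 identifiers, and unmatched ones held 0.0515% of counts. Tests used edgeR 4.0.16 in R 4.3.3: filterByExpr, TMM factors and a robust quasi-likelihood fit of the 6 groups together (residual degrees of freedom 8), tested on simulated data. The biological coefficient of variation was 0.323. SE was taken as log2 fold change divided by the root of its F statistic. CPM and TPM were computed here from the counts. The genes named are those with the smallest p, up to 12 of each kind in a comparison when at least 5 were called and otherwise 5, and always 10 markers. Of each other list up to 4 were named. Further members were named in the comparisons of 3T3-L1 to cover each role, after their values were seen. The members and lists were chosen with earlier results of these data known. Orc3 and Orc4 were named after their values were seen.

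Deviations of same-numbered treated and control replicates from their group means correlated at 0.616 in M6, 0.372 to 0.640 in M27H4 and 0.361 in 3T3-L1. Replicates of unlike number in M27H4 correlated at -0.493 to 0.308. In M27H4 and 3T3-L1 the same numbers also share column codes, so number and code cannot be told apart there. The main fit used no block. Alternatives were RLE scaling, no low-count filter, DESeq2 1.42.0, limma 3.58.1 (voom) and each replicate left out. Others were only the groups compared, a replicate block, and columns that share a code. For treatment comparisons the block was the replicate number within a line. For comparisons between lines it was the number in the sample descriptions, shared across lines, which for 3T3-L1 differs from the replicate number. The labels do not say that equal numbers pair samples of different lines.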

Additional observations from a re-analysis of the deposited data

How the results depend on the processing

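Counts of called genes stayed within 1.5 times of the main ones under most alternatives, and none of the 54 was called in a treatment comparison under any of them. The exceptions were in the comparisons between lines. For M27H4 against M6 controls, 1 mitosis gene was called in the main fit, against 3 under RLE scaling, 3 by DESeq2, 3 by limma voom and 7 with the replicate block, and 1 to 3 with a replicate left out; for replication genes the count with a replicate left out was 1 to 6. For 3T3-L1 against M6 controls 8 to 22 mitosis genes were called with a replicate left out. For 3T3-L1 against M27H4 controls 8 to 22 replication and 12 to 25 mitosis genes were. Fits with a replicate left out rest on fewer samples. In these comparisons between lines they also called fewer of all genes than the main fit, and the cause was otherwise not tested. The replicate block changed no other count by over 1.5 times. The second pair of 3T3-L1 and M27H4 columns that share a code was added after seeing the data. With a replicate left out, log2 changes of 3T3-L1 overexpression against control crossed 0 for Prim1 (-0.43 to 0.14), Cdt1 (-0.18 to 0.55), Tyms (-0.39 to 0.14), Rfc4 (-0.29 to 0.061), Ndc80 (-0.38 to 0.085), Aurka (-0.45 to 0.054), Ube2c (-0.23 to 0.81), Nuf2 (-0.43 to 0.13) and Bub1 (-0.49 to 0.30), and that of Hist4h4 in M27H4 against M6 controls did too (-1.35 to 0.076). Changes that were near 0 crossed it too. For E2f1 in 3T3-L1 against M6 controls the log2 change was -0.16 to 0.12 with a replicate left out, -0.014 with no low-count filter and -0.082 with the replicate block, and against M27H4 controls it was -0.25 to 0.032 with a replicate left out. For Rfc5 against M27H4 controls it was -0.40 to 0.19 with a replicate left out and 0.028 in the columns that share a code. With 2 or 3 replicates a group, a treatment effect within the intervals given was not detectable here.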
